A study of Mus musculus with 2 samples.

Results

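The miR-26 family of the mouse consists of 3 microRNA genes, Mir26a-1, Mir26a-2 and Mir26b, each lying in an intron of a gene for a small phosphatase of the carboxy-terminal domain of RNA polymerase II (Ctdspl, Ctdsp2 and Ctdsp1). The genes were taken by symbol from the GENCODE M21 annotation, which made 3 of the 2202 microRNA genes counted in the series, and all 3 had at least 10 counts in each library. Their identifiers in the files are ENSMUSG00000065513.1 (Mir26a-1), ENSMUSG00000065430.1 (Mir26a-2) and ENSMUSG00000065468.1 (Mir26b), and positions are those of mm10. The libraries came from microRNA sequencing, with RNA below 30 nt selected, of whole hearts of female B6CASTF1/J mice, a hybrid strain, at 4 days of age. Replicate 1 was the heart of the animal numbered 3 and replicate 2 that of the animal numbered 4. The labels gave both animals the same donor entry, and no treatment, mutation or second tissue. The 2 libraries made 1 group, so each comparison below is either between genes within a library or between these libraries, never between conditions.

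A microRNA is cut from a hairpin in its primary transcript, first by Drosha in the nucleus and then by Dicer in the cytoplasm. One arm of the hairpin, here usually the 5p arm, is loaded into an Argonaute protein and finds target transcripts through its seed, bases 2 to 8, while the other arm (3p) is mostly discarded. miR-26 is found in most tissues and is known for restraining proliferation through transcripts such as Ezh2 and those of cyclins and cyclin-dependent kinases. In cardiovascular tissue it is known for targeting Gata4 in cardiac muscle cells and Smad1 in endothelial cells. The host phosphatases are known for silencing neuronal genes with REST outside the nervous system and for dephosphorylating the retinoblastoma protein.

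The mature sequences are shown because they decide which reads could be counted for which gene. Here the capitals mark the seed, the sequences are those of RefSeq on GRCm38.p6 (plus strand), and the 5p sequence of Mir26a-1 and Mir26a-2 is 1 and the same.
miR-26a-5p, from chr9:119031811-119031832 and chr10:126995543-126995564: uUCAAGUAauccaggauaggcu
miR-26b-5p, from chr1:74394324-74394344: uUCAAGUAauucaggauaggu
miR-26a-1-3p, from chr9:119031850-119031871: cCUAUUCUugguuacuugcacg
miR-26a-2-3p, from chr10:126995581-126995602: cCUGUUCUugauuacuuguuuc
miR-26b-3p, from chr1:74394360-74394381: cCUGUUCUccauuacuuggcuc
All 3 genes shared the 5p seed, which no other gene held among the 1018 of 2202 that have a mature sequence in the RefSeq table. Counted from the 5′ end, miR-26b-5p differed from miR-26a-5p by C11U and C21U and ended 1 base earlier. The 3p arms differed more. That of Mir26a-2 differed from that of Mir26a-1 at 6 of 22 positions, among them A4G within the seed. Mir26a-2 and Mir26b had the same 3p seed, which Mir7039 (3 and 1 counts in replicates 1 and 2) and Mir6932 (7 and 3 counts) also held.

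The hairpins are shown because the reach of the shared stretch limits the counts of 2 of the 3 genes. In the next lines the capitals mark the longest run that a hairpin had in common with another hairpin of the family.
Mir26a-1, chr9:119031796-119031885, 90 nt: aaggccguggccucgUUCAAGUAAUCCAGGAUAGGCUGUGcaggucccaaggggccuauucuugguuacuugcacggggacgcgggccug
Mir26a-2, chr10:126995530-126995613, 84 nt: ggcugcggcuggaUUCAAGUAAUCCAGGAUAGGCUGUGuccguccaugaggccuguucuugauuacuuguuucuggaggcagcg
Mir26b, chr1:74394310-74394394, 85 nt: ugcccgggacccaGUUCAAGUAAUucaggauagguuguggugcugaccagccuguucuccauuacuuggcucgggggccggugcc
Mir26a-1 and Mir26a-2 had a run of 25 nt in common, which began at the first base of the mature 5p sequence and went 3 nt past its end. A read that starts at the usual 5p end and runs at most 3 nt too far therefore matches both genes. The files list reads that map to several places apart from all genes, and a read that mapped to both genes is in neither count. Of the 20-nt windows inside the mature 5p sequence, 3 of 3 were shared in each Mir26a gene, against 0 of 3 inside either 3p sequence. Mir26b had at most 11 nt in a row in common with another member, and none of its 66 windows of 20 nt lay in another annotated hairpin. The counts of Mir26a-1 and Mir26a-2 thus give no level of miR-26a-5p, whereas the count of Mir26b could hold both arms of its hairpin.

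**Figure D1:**
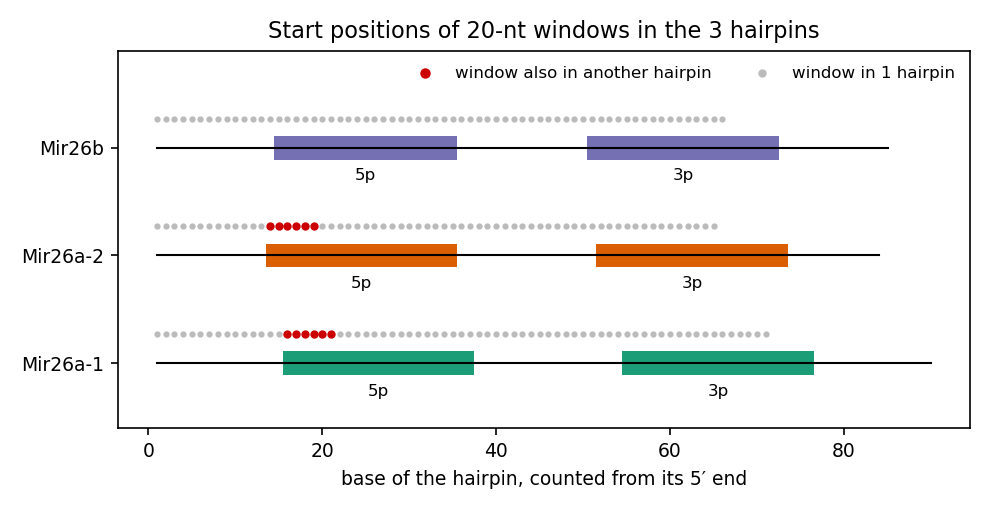
Start position of each 20-nt window (dots) along the 3 hairpins, in bases from the 5′ end, with the mature 5p and 3p sequences as boxes. Red dots mark the 6 windows of Mir26a-1 and of Mir26a-2 that also lie in the other hairpin, all starting in the 5p sequence, and grey dots mark windows of 1 hairpin.

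The hosts had the same layout around the hairpins. All 3 hairpins lay on the plus strand, as their hosts do, and within the intron that 3 exons follow in the principal transcript. That was intron 5 of 7 in Ctdspl and in Ctdsp2, and intron 4 of 6 in Ctdsp1. In each host the exon before this intron had 57 nt and the exon after it 93 nt, while the intron itself had 3283 nt in Ctdspl, 1946 nt in Ctdsp2 and 564 nt in Ctdsp1. Mir26a-2 had an additional feature. A shorter protein-coding transcript of Ctdsp2 and one with a retained intron were annotated to begin at position 126995613 of chromosome 10, the last base of the hairpin, so that 1 nt of it was exonic in them. Transcripts of the hosts were not measured in these libraries.

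**Figure D2:**
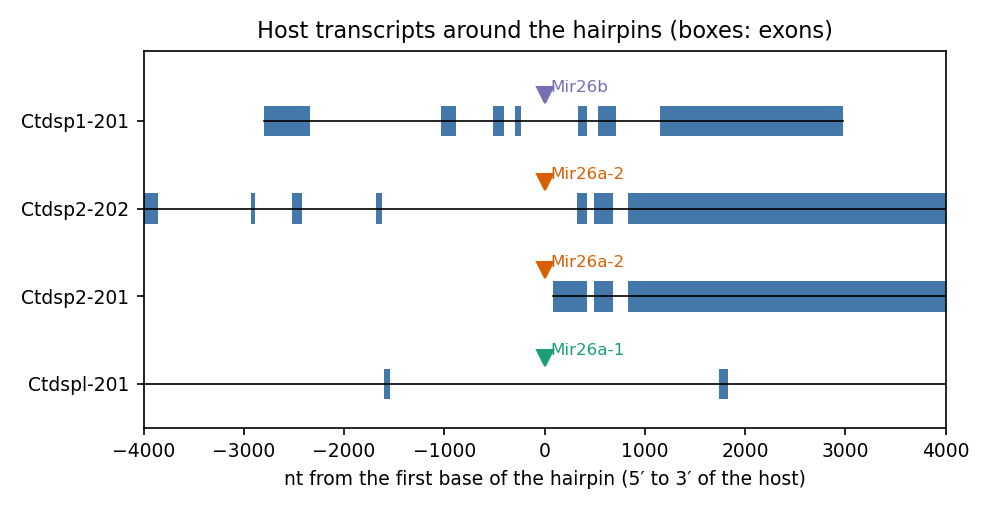
Exons (boxes) of host transcripts on both sides of each hairpin, in nt from the first base of the hairpin (triangle). Each hairpin lies in the intron before the last 3 exons, and the shorter Ctdsp2 transcript starts where the Mir26a-2 hairpin ends.

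The libraries held 6417302 counts over microRNA genes in replicate 1 and 5662222 in replicate 2, while 39.6% and 43.2% of all reads were multi-mapped. Levels are given as CPM, counts per 1000000 counts of the library, and 3 counts, taken as the floor, equal 0.467 and 0.530 CPM. The 7 microRNA genes of heart muscle on the marker list summed to 21023 and 19191 CPM, with 5 of 7 at 10 counts or more in each library. The sum leaves out multi-mapped reads, and the list holds the copies Mir1a-1 and Mir1a-2, and Mir133a-1 and Mir133a-2. The sum is therefore no measure of the part of heart muscle. Genes of the list went both ways. The edgeR log2 ratio of replicate 1 over replicate 2 was -1.83 for Mir499, -1.58 for Mir1a-1, -0.99 for Mir1a-2 and -0.77 for Mir133a-1. It was 0.52 for Mir208a, 0.07 for Mir208b and 2.02 for Mir133a-2. The neuronal list summed to 0.467 and 0.177 CPM over 6 genes, 4 of them at 0 counts in both libraries, and the liver gene Mir122 had 105 and 86.2 CPM. In whole hearts, fewer cells of a type and less RNA per cell cannot be told apart.

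Mir26b held nearly all reads that were counted for the family, which leave out multi-mapped reads of miR-26a-5p. It had 136908 counts in replicate 1 and 117169 in replicate 2, or 21334 and 20693 CPM (mean 21014 ± 453, SD, n = 2). Its share of all counts was 2.133% in replicate 1, with a 95% Clopper-Pearson interval of 2.122 to 2.145, against 2.069% in replicate 2, with 2.058 to 2.081. These intervals cover counting error only. By mean CPM it held place 12 of 2202, with place 14 in replicate 1 and place 12 in replicate 2. The closest genes, by distance between log2(CPM + 1) values over both libraries among the 373 genes with 10 counts in each, were Mir351, Mirlet7b and Mir322. Mir351, of the X-linked cluster that also holds Mir322, had 20871 and 20184 CPM (mean 20528 ± 486), below Mir26b in both libraries by a gap close to the SD of either gene. Mirlet7b had 19935 ± 3204 CPM and was above Mir26b in replicate 1 but below it in replicate 2, so the order of Mir26b and Mirlet7b was not fixed between the libraries. Mir322, at 26636 ± 2466 CPM, was above Mir26b in both.

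Mir26a-2 had few counts and, of the 3 members, the widest fold difference between the hearts. It had 122 counts in replicate 1 and 1298 in replicate 2, or 19.0 CPM (95% Clopper-Pearson interval 15.8 to 22.7) and 229 CPM (217 to 242). The intervals lay far apart, and the place of the gene by level was 263 in replicate 1 and 132 in replicate 2. Its mean, 124 ± 149 CPM (SD, n = 2), therefore rests on replicate 2, with 19.0 CPM when that library is left out. Mir26a-1 had the lowest level and hardly differed, with 30 and 28 counts, or 4.67 CPM (3.15 to 6.67) and 4.95 CPM (3.29 to 7.15), a mean of 4.81 ± 0.191 CPM. The order Mir26b, Mir26a-2, Mir26a-1 held in both libraries without overlap of the intervals, and also per hairpin length, at 24722, 148 and 5.34 CPM per 100 nt. For both Mir26a genes it is an order of reads that do not lie wholly within the shared run. No member had a count on the opposite strand in either library.

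**Figure D3:**
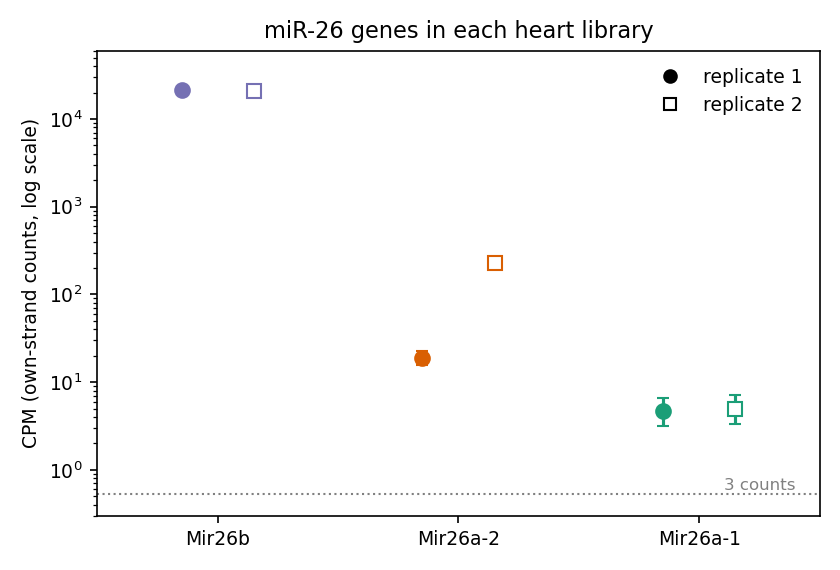
CPM on a log axis for each miR-26 gene in replicate 1 (filled circles) and replicate 2 (open squares), with 95% Clopper-Pearson intervals for counting error. Mir26b sits at 21334 and 20693 CPM and Mir26a-1 at 4.67 and 4.95 CPM, while Mir26a-2 has 19.0 CPM in replicate 1 and 229 CPM in replicate 2.

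Between the libraries, Mir26a-2 was the 1 member of 3 that differed past both limits set, a fold over 2 and an adjusted p under 0.05 (two-sided exact binomial test on counts, TMM-scaled, Benjamini-Hochberg over 491 genes). Of the 491 genes tested, 55 were called (11.2% of the 491). Of these 55 genes, 37 (7.54% of the 491) were higher in replicate 2, like Mir26a-2. The log2 ratio of replicate 1 over replicate 2 was -3.92 for Mir26a-2 (95% counting interval -4.20 to -3.66), or 15.1-fold lower in replicate 1 and 12.1-fold lower by CPM. This was the second lowest of 491 ratios, after that of Mir205, a gene known from epithelium (9 and 180 counts, log2 ratio -4.76). For Mir26a-1 the log2 ratio was -0.42 (-1.21 to 0.38; exact binomial test, adjusted p = 0.429). For Mir26b it was -0.29 (-0.30 to -0.28), well inside 2-fold, and it took the opposite sign, 0.044, under scaling by library totals. The TMM scaling moved all log2 ratios by -0.33 against scaling by totals, and the median over all tested genes was -0.02.

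The binomial test takes account only of counting noise, and with 1 library on each side the difference has no replicate check. As a description, a common dispersion was taken from the same libraries treated as 1 group (biological coefficient of variation 0.342). Under it, 4 of 491 genes (0.815%) passed edgeR's exact test, namely Mir26a-2 and Mir205, higher in replicate 2, and Mir185 and Mir206, higher in replicate 1. No other samples give that spread, so this ranks genes within these libraries and is no independent test. Marker lists differed between the libraries as well. The skeletal muscle list (Mir206 and Mir133b) summed to 719 CPM in replicate 1 and 60.05 CPM in replicate 2, with 1 of 2 genes at 10 counts in both. Nearly all of this sum was Mir206, at 718 and 58.5 CPM. The edgeR log2 ratio was 3.29 for Mir206 but -0.36 for Mir133b. The erythroid list (3 of 3 genes) summed to 788 and 300 CPM, the leukocyte list (4 of 4) to 1301 and 872 CPM, and the epithelial list with Mir205 (5 of 6) to 509 and 443 CPM. These sums are scaled by library totals, whereas the edgeR ratios are TMM-scaled, which moved all log2 ratios by -0.33. By the edgeR log2 ratio of replicate 1 over replicate 2, single genes of the epithelial and leukocyte lists went both ways. Of epithelial genes, Mir205 (-4.81), Mir200b (-1.45), Mir429 (-0.76) and Mir200a (-0.36) were higher in replicate 2. By CPM Mir200a hardly differed, at 4.67 in replicate 1 and 4.77 in replicate 2. Mir141 (0.32) and Mir200c (0.23) were higher in replicate 1. Of leukocyte genes, Mir223 (-1.17) was higher in replicate 2 and Mir142 in replicate 1. Higher by CPM in replicate 2 were the endothelial gene Mir126a, at 51829 and 73011 CPM, and the smooth muscle list (2 of 2), at 47055 and 60331 CPM. Their part in the Mir26a-2 result was not tested.

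**Figure D4:**
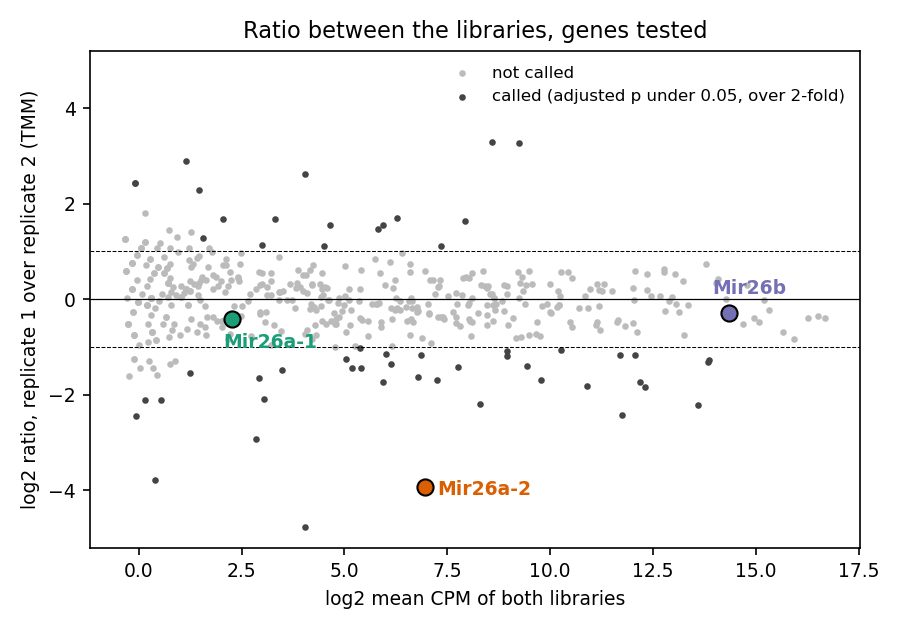
Log2 ratio of replicate 1 over replicate 2 (TMM-scaled) against log2 mean CPM for the 491 genes tested, with dashed lines at 2-fold and called genes in dark grey. Mir26a-2 lies at -3.92, while Mir26a-1 (-0.42) and Mir26b (-0.29) lie among the genes inside 2-fold.

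Shares within the family are free of the scaling between libraries. Mir26a-1 made up 19.7% of the counts of both Mir26a genes in replicate 1 and 2.11% in replicate 2. The 95% Clopper-Pearson intervals, 13.7 to 26.96 and 1.41 to 3.04, lay apart, and the shares differed by a two-sided Fisher's exact test (adjusted over 4 comparisons, p = 5.10e-16). Put the other way, there were 4.07 counts of Mir26a-2 for each count of Mir26a-1 in replicate 1 and 46.4 in replicate 2. Mir26b made up 99.98% of its sum with Mir26a-1 in both libraries (Fisher's exact adjusted p = 0.793, a difference not detectable at these counts). Of its sum with Mir26a-2 it made up 99.91% in replicate 1 and 98.90% in replicate 2 (Fisher's exact adjusted p = 2.00e-288). The ratio of Mir26b to Mir26a-1 thus differed between the hearts by less than counting error, and Mir26a-2 moved against both. These tests compare 2 libraries, not conditions, and their p-values cover counting error only, with no estimate of the spread between hearts.

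Mir26a-1 and Mir26a-2 were set beside other genes at separate places that have at least 1 mature sequence in common. Of the genes with a mature sequence in the RefSeq table (1018 of 2202), 92 shared one with another gene. Among these copies 41 (44.6%) reached 10 counts in both libraries, against 295 of 926 genes (31.9%) with a sequence of their own. The order was the opposite when copies were defined by a shared 20-nt stretch of hairpin, with 78 of 1087 such genes (7.18%) against 295 of 1115 genes (26.5%) that share none. Of the 46 copies with an identical mature sequence that were tested, 4 were called (8.70%, against 11.2% of all tested genes), namely Mir26a-2 and Mir16-1, higher in replicate 2, and Mir196a-2 and Mir3074-1, higher in replicate 1. In 20 pairs both copies had at least 10 counts in the sum, a filter that leaves out pairs with a copy below that, and 1 gene, Mirlet7c-2, is in 2 of the pairs. The log2 ratio of Mir26a-2 over Mir26a-1, with 0.5 added to each count, was 2.01 in replicate 1 and 5.51 in replicate 2. That shift, 3.50 on the log2 scale, was the widest of the 20 pairs that passed the filter, against a median of 0.28 and a highest value of 1.37 in the other 19. Among the pairs left out, 2 had wider shifts, each with a copy at 0 counts in replicate 1. Mir196a-2 and Mir196a-1 had 11 and 0 counts in replicate 1 and 1 and 1 in replicate 2 (shift 4.52). Mir219a-1 and Mir219a-2 had 51 and 0 counts in replicate 1 and 43 and 8 in replicate 2 (shift 4.33). The first place of the Mir26a pair thus rests on the filter. The highest among the 19 was the pair Mir29b-1 and Mir29b-2, with 64 and 8 counts in replicate 1 and 42 and 14 in replicate 2. The other tested pairs that lie in introns of related hosts had shifts of 0.078 (Mir103), 0.094 (Mir128) and 0.33 (Mir218), the last of them above the median. Mir128-1 in R3hdm1 had 1689 counts and Mir128-2 in Arpp21 had 174 in replicate 1, with 1120 and 123 in replicate 2, and Mir103-2 in Pank2 and Mir103-1 in Pank3 had 177 and 18 counts in replicate 1 and 104 and 11 in replicate 2. Mir218-2 in Slit3 and Mir218-1 in Slit2 had 182 and 55 counts in replicate 1 and 87 and 33 in replicate 2.

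**Figure D5:**
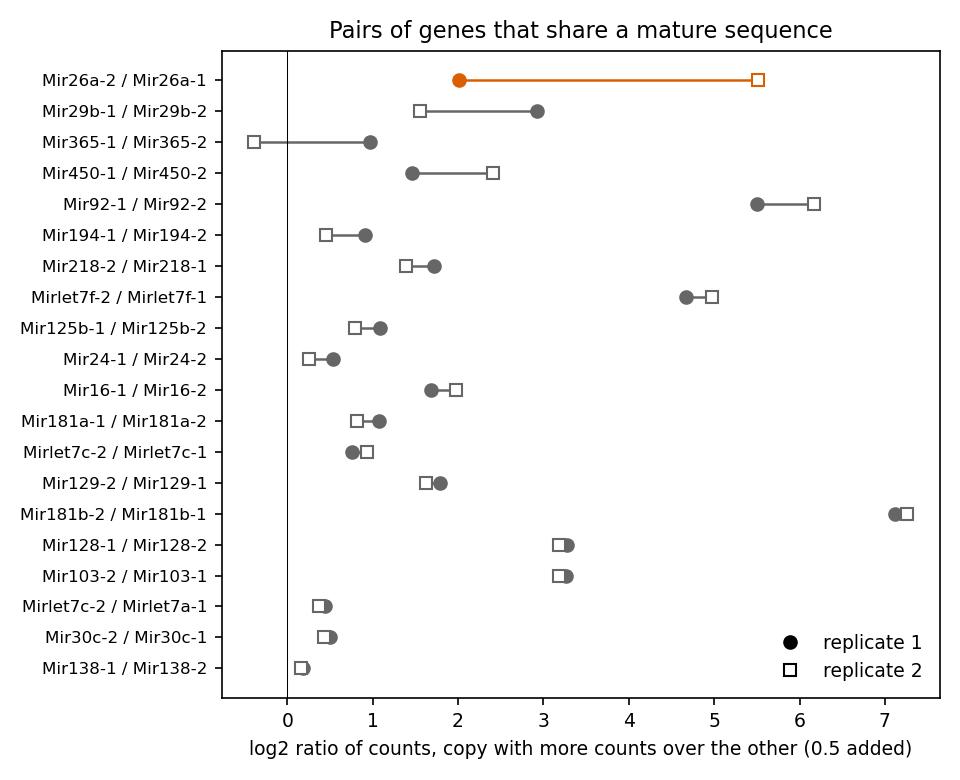
Log2 ratio of counts between the copies of 20 gene pairs with an identical mature sequence (copy with more counts over the other, 0.5 added), in replicate 1 (filled circles) and replicate 2 (open squares). Lines join the libraries, and the Mir26a pair, at 2.01 and 5.51, has the longest.

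The nearest genes on the chromosome with at least 10 counts in each library, 285 kb or more away, did not show the gap of Mir26a-2. Mir546, annotated in an exon of the same host 2827 nt downstream, had 5 counts in each library, too few to judge. Mir378d, 285 kb away on the other strand, had 165 and 166 counts (log2 ratio -0.52), and Mir677 on the same chromosome had 218 and 165 (-0.11), neither of them called. No other annotated microRNA gene lay within Ctdspl or Ctdsp1. The genes nearest to Mir26a-2 by level over both libraries were Mir380 (217 and 507 counts), Mir340 (410 and 890) and Mir668 (298 and 532), at distances of 1.57 to 1.78 on the log2 scale. For Mir26a-1 the nearest were Mir200a (30 and 27 counts), Mir7666 (31 and 29) and Gm23935 (28 and 28), at distances up to 0.081. No gene thus came as close to Mir26a-2 as the nearest ones came to Mir26a-1.

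Of the 809 microRNA genes in an intron of a protein-coding gene on the same strand, 163 reached 10 counts in both libraries and 234 were tested. Of those, 23 were called (9.83%, against 11.2% of all tested genes), 10 higher in replicate 1 and 13 higher in replicate 2, and the ratio of Mir26a-2 was the lowest among them. The family was also set beside a list of 25 microRNA genes known, like miR-26, to restrain the cell cycle, from the let-7, miR-15/16, miR-34 and miR-101 families. All 25 had at least 10 counts in each library. By mean CPM, Mir26b came after Mirlet7i (93958 ± 597 CPM), Mirlet7g (79144 ± 2385), Mirlet7d (37891 ± 5988; SD, n = 2 each) and Mir322 of this list, and before its other genes. Of those other genes, the let-7a, let-7c, let-7f, miR-16 and miR-101 genes share 20 nt with another hairpin. Their counts can thus leave out multi-mapped reads, and their place below Mir26b is no order of mature microRNA levels. Of the 25, 4 were called (16%, against 11.2% of all), each higher in replicate 2. These were Mir195a (log2 ratio -1.68), Mir16-1 (-1.19), Mir101a (-1.16) and Mir503 (-1.05), and under scaling by totals Mir195a alone passed (-1.35). The median log2 ratio of the list was -0.38, against -0.02 over all tested genes, and under scaling by totals -0.048 against 0.31.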

How the data were processed

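The authors deposited 1 table of raw, unnormalized counts for each library, with a row per microRNA gene. Per the file headers and notes, the build was mm10 and the annotation GENCODE M21. The tables have 3 count columns (without strand, own strand, opposite strand) and 4 summary entries, which were left out of totals. The meaning of the columns was inferred from this layout. Own-strand counts were used. For aligner, counter and trimming, names and settings: not given in the sources used here.

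From these, CPM was computed on library totals, and genes whose counts summed to 10 or more were tested between the libraries with a two-sided exact binomial test on TMM-scaled sizes (factors 1.12 and 0.891, edgeR 4.0.16, R 4.3.3), Benjamini-Hochberg adjusted, with 0.5 added in log2 ratios. The procedure was tested on simulated data with counting noise only. There, 1 of 279 unchanged genes was called, as were 48 of 49 genes set to differ by 10-fold. Those data held no spread between hearts, so they cannot show how such spread affects the calls. Calls needed an adjusted p under 0.05 and over 2-fold. P-values of the binomial and Fisher tests cover counting error only and compare these libraries. The edgeR exact test, an alternative, took its dispersion from the same libraries. Shares carry Clopper-Pearson 95% intervals. DESeq2 1.42.0 gave size factors for an alternative. Windows of 20 nt were compared with all annotated hairpins on both strands. No genome sequence was searched, and variants of the CAST parent were not examined. RefSeq hairpins were identical to the annotated ones for 3 of 3 members.

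The named genes are the members, the 3 genes nearest to each by level, genes with a member's seed, copies with identical mature sequences and the lists. Mir205, Mir185, Mir546, Mir5619 and the called copies were named after their values were seen, as were the chromosome neighbours. The members and lists were chosen with earlier results of these data known. Tests ran in scipy 1.17.1 with numpy 2.4.6 and pandas 2.3.3 under Python 3.11.15, and plots in matplotlib 3.10.9.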

Additional observations from a re-analysis of the deposited data

How the results depend on the processing

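Of 81 recomputed values, 61 stayed the same in direction and call or moved by less than the spread between the libraries. With n = 2, leaving out 1 library always moves a mean CPM or mean share by less than their SD. Such values were thus bound to be among the 61 and show no stability. They include 229 and 19.0 CPM for Mir26a-2 against a mean of 124. They also include shares of 2.11% and 19.7% for Mir26a-1 among both Mir26a genes, against a mean of 10.9%. Mir26a-2 remained called under every scaling, filter, count column and test tried, with log2 ratios of -3.94 to -3.48. Mir26a-1 and Mir26b were called under none, but their small ratios changed sign. Mir26b had 0.044 under library totals and 0.15 under totals with multi-mapped reads, and Mir26a-1 had 0.019 with multi-mapped reads in the totals. The number of genes called, 55, was 97 at 1.5-fold, 30 at 3-fold and 4 in edgeR's exact test, whose dispersion comes from the same libraries. With multi-mapped reads in the total, CPM was 2.45 for Mir26a-1, 10734 for Mir26b and 10798 for the family. With counts without strand, whose total is smaller, it was 6.01, 26244 and 26406, with place 295 for Mir26a-1 and 10 for Mir26b. Per 100 nt of hairpin it was 5.34 for Mir26a-1 and 24722 for Mir26b. Without replicate 1 or 2, the place of Mir26a-2 ranged from 132 to 263 and that of Mir26b from 12 to 14. Mir26b held place 9 among genes that share no 20 nt with another. With copies defined by a shared 20-nt stretch of hairpin, 7.18% of them reached 10 counts in both libraries, below the 26.5% of genes that share none, whereas by identical mature sequence 44.6% did, above the 31.9% of other genes. No paired analysis was possible because the libraries form 1 group. Depth limits Mir26a-1 most, at 30 and 28 counts, and multi-mapped reads, which are in no gene's count, limit both Mir26a genes. Windows of 18 and 22 nt, and a search of all annotated transcripts (chosen after seeing the data), left the shared stretch within the 5p side of the Mir26a hairpins.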
